A study of Homo sapiens with 8 samples.

Results

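The genes described here are 39 human genes for enzymes that carry FAD or FMN, the cofactors made from riboflavin, out of 62649 genes in the deposited table. They were chosen by gene name, and all 39 names were found. The members and the gene lists read beside them were chosen with earlier results of these data known. By the site where the cofactor is bound they fall into 7 enzymes of mitochondrial fatty acid oxidation and electron transfer, 7 of mitochondrial amino acid and choline catabolism, 9 at the respiratory chain entry or elsewhere inside mitochondria, 7 in the mitochondrial outer membrane or endoplasmic reticulum, 7 in the cytosol, lipid droplet, lysosome or peroxisome, and 2 on chromatin.

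RNA came from AsPC-1 and PANC-1, established human pancreatic cancer lines that the labels give as WT in genotype. Both were grown in 3 dimensions in methylcellulose medium for 3 days and then kept for 24 h with vehicle, with 10 µM roseoflavin, with 1 nM trametinib or with both compounds. Roseoflavin is a natural analog of riboflavin, and trametinib inhibits the kinases MEK1 and MEK2. Every combination of a line and a treatment is 1 library, 8 in all, so a treatment is repeated only across the lines and across the other compound, and p-values measure the spread between these 8 libraries, for which no source states separate cultures. Values are TPM (transcripts per 1000000), a level per transcript length that sums to 1000000 in every library and keeps no sequencing depth.

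Flavin enzymes take electrons from a substrate onto the ring system of FAD or FMN and pass them to oxygen, a quinone, a disulfide or another carrier. Riboflavin kinase makes FMN from riboflavin and FAD synthase makes FAD from FMN, and many of the dehydrogenases that use them sit in mitochondria, where fatty acid and amino acid oxidation feed the respiratory chain through the electron transfer flavoprotein. Others act in disulfide formation in the endoplasmic reticulum, in keeping glutathione, quinones and thioredoxin reduced, and in removing methyl groups from histones.

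Promoter sequence was searched because some members stood beside hypoxia genes or oxidative stress genes in the values given further on. The first pattern was ACGTG, the core of the element bound by the hypoxia-inducible factors, which reads CACGT on the other strand. The second was TGACNNNGC (GCNNNGTCA on the other strand), the core of the antioxidant response element bound by NRF2. Both strands of the 250 bases before each RefSeq start site (GRCh38.p14) were read, and 33 of the 39 members had an entry. ACGTG was present in 6 of the 33 (KDM1A, PPOX, ACAD9, ERO1A, DHODH and ETFB), which is 18.2% against 18.5% of all 35116 promoters. TGACNNNGC was present in 4 (XDH, ACOX3, AIFM2 and ETFA), 12.1% against 10.9% of all promoters. NQO2, whose roseoflavin values are also given further on, had an entry and no TGACNNNGC match. For GSR no match was listed, and whether it was among the 33 members with an entry is not given here. The windows of ERO1A and AIFM2 are shown for their roseoflavin values given further on, and those of ACOX3 and XDH for their trametinib values. They are printed 5′ to 3′ on the strand of the gene, with the matched letters in capitals. The patterns do not overlap each other in these windows. ERO1A was read from chr14:52695656-52695684 (minus strand, match 114 bases before the start), AIFM2 from chr10:70132829-70132857 (minus strand, 22 bases before), ACOX3 from chr4:8440762-8440790 (minus strand, 57 bases before) and XDH from chr2:31414941-31414969 (minus strand, 217 bases before). Distances are to the RefSeq start. The GENCODE release 29 start lies further upstream for ERO1A (52695900) and AIFM2 (70132934), so their windows fall inside the gene by that annotation.
ERO1A: cgggcgccgcggCACGTccacaggctggg
AIFM2: cagcacgagtGCTGAGTCAcgccccgccc
ACOX3: cgcgccgagaTGACGCAGCccggtggcgc
XDH: gtcgcctagtGCCAAGTCAacaaccttac
A match describes the letters only. The shares among members were close to the shares among all promoters for both patterns.

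Markers of cell types were read as a check of the lines. The summed level of 6 epithelial markers was 9167 to 10555 TPM in AsPC-1 and 2709 to 3029 in PANC-1, and that of 4 mesenchymal markers was 668 to 825 and 3155 to 3416. VIM made up nearly all of the mesenchymal sum (660 to 816 and 3132 to 3391 TPM). FN1 did not exceed 0.533 TPM in either line, and CDH2 was listed at 0 in AsPC-1 and did not exceed 5.57 TPM in PANC-1. Of the hepatocyte markers, ALB was listed at 0 in all 8 libraries and APOA1 did not exceed 0.524 TPM. The 2 leukocyte markers disagreed, with PTPRC at no more than 0.019 TPM and CD68, a lysosomal membrane protein also made outside leukocytes, giving nearly all of a summed 108 to 114 TPM in AsPC-1 and 120 to 139 in PANC-1. The 2 fibroblast markers summed to 0.114 to 0.18 TPM in AsPC-1 and 98.9 to 107 in PANC-1, where COL1A1 made up the sum and DCN was listed at 0. The endothelial pair did not exceed 0.096 TPM in sum. Of the markers of normal pancreatic acinar cells, PRSS1 did not exceed 0.077 TPM and CPA1 did not exceed 0.036 TPM. Transcripts of the mitochondrial genome took 41.2% to 44.1% of the AsPC-1 libraries and 22.8% to 25.6% of the PANC-1 libraries. Because TPM is a share, this gap shifts every nuclear gene between the lines, and in bulk RNA a change in the share of one kind of cell cannot be told apart from a change in RNA per cell.

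The 39 members together held 1017 to 1075 TPM in the AsPC-1 libraries and 1022 to 1082 in PANC-1, so the lines overlapped on the deposited scale. With the mitochondrial genome left out, the members made 0.179% to 0.186% of nuclear TPM in AsPC-1 and 0.137% to 0.140% in PANC-1, and the lines did not overlap. A few genes carried much of the sum. The 5 most abundant members held 52.2% to 53.2% of it in AsPC-1 (ACADVL, ERO1A, GSR, SDHA and POR) and 43.7% to 45.9% in PANC-1, where SQOR took the place of GSR in the list and DLD that of POR in the vehicle library. A mean of 10 TPM or more was reached by 21 members in AsPC-1 and 28 in PANC-1. PRODH (proline oxidation), SARDH and DMGDH (sarcosine and dimethylglycine oxidation) and MAOA (amine oxidation) stayed under 1 TPM, with highest values of 0.153, 0.376, 0.587 and 0.061 TPM, and were too low to test.

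**Figure D1:**
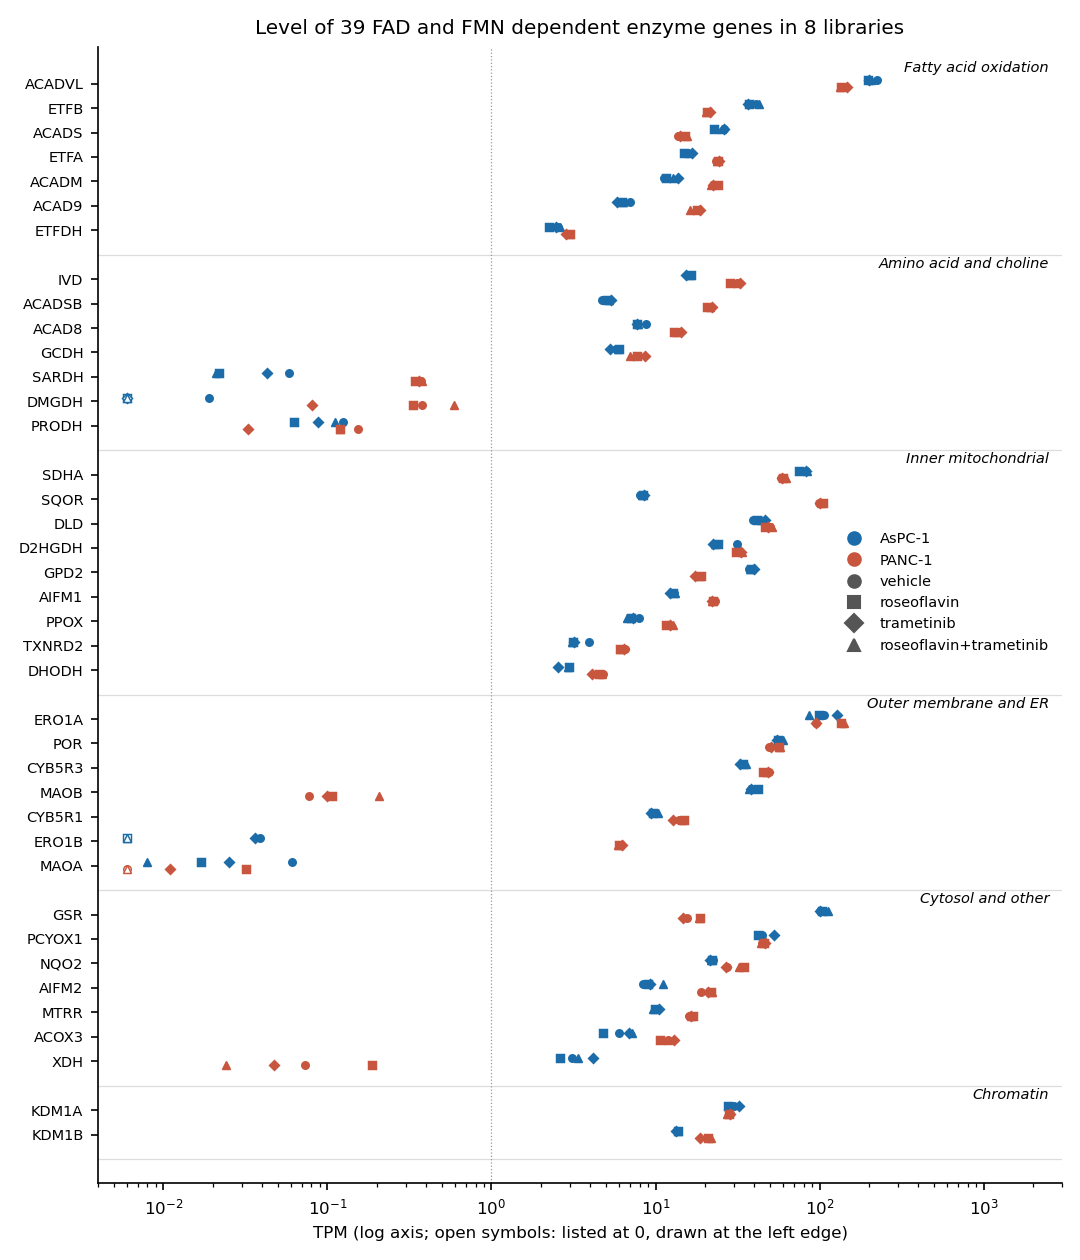
Level in TPM (log axis) of the 39 members, 1 symbol per library, with the line as colour, the treatment as shape, and open symbols for values listed at 0. The dotted line is 1 TPM, and a reader should see that the 4 treatments of a line lie close together for nearly all members while the lines are often apart, as for SQOR, MAOB, ERO1B, GSR and XDH.

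The largest differences were between the lines. After the filter of at least 1 TPM in 2 or more libraries, 35 members were tested, and 31 differed between PANC-1 and AsPC-1 at an adjusted p under 0.05, against 83.8% of all 19122 genes tested (at an unadjusted p under 0.05, 31 against 84.5%). PANC-1 was higher for 23 of them (62.3% of all genes were called so) and AsPC-1 for 8 (21.5%). The median difference was 0.47 over the members and 0.55 over all genes on the log2(TPM + 1) scale. MAOB and XDH passed the filter through AsPC-1 alone and ERO1B through PANC-1 alone, so these 3 had to differ. All 4 PANC-1 libraries lay above all 4 AsPC-1 libraries for 22 of the 35 members (59.4% of all genes), and the reverse held for 8 (19.8%).

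The split between the directions followed the scale. With the TPM rescaled without mitochondrial genes, 29 members were called, 17 higher in PANC-1 and 12 higher in AsPC-1, and with quantile normalization 25 were, 12 and 13. Of all genes, 16112 of 20467 and 15140 of 19122 were called under these scalings. PANC-1 was higher for 60.9% and 52.6% of all genes called, and for 58.6% and 48% of the members called. These scalings moved the median difference of all genes by -0.33 and -0.51. The sign of the difference between the lines changed under one or both for CYB5R1, D2HGDH, DHODH, DLD, ERO1A, ETFDH, GCDH and NQO2. Quantile normalization also moved some differences by over 1.5 times without turning them, to 0.39 for IVD, 0.54 for AIFM2, 0.81 for ACAD9, -1.25 for ACADS and -1.38 for ETFB.

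In fatty acid oxidation, 4 of the 7 enzymes were higher in PANC-1 and 3 in AsPC-1 on the deposited scale. ACADVL, which starts the oxidation of very long chain acyl-CoA, was the most abundant member, at 223, 198, 200 and 205 TPM in AsPC-1 with vehicle, roseoflavin, trametinib and both, and at 144, 134, 147 and 133 TPM in PANC-1. ACADS, the short chain enzyme, was also higher in AsPC-1 (22.8 to 26.1 against 13.7 to 15.6 TPM; difference -0.74, SE 0.0638, adjusted p = 3.8e-05, limma). ACADM, the medium chain enzyme, lay the other way, at 11.2 to 13.7 TPM in AsPC-1 and 21.9 to 24.0 TPM in PANC-1, and so did ACAD9, an acyl-CoA dehydrogenase that also serves complex I assembly (5.85 to 6.94 against 16.3 to 18.8 TPM; difference 1.36, SE 0.0581, adjusted p = 1.1e-06, limma). The level of ACADVL over that of ACADM was 14.6 to 19.9 in AsPC-1 and 5.61 to 6.57 in PANC-1.

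The subunits of the electron transfer flavoprotein, the carrier that takes electrons from these dehydrogenases, also differed in opposite directions. ETFA was 14.8 to 16.6 TPM in AsPC-1 and 23.4 to 24.3 TPM in PANC-1. ETFB was 36.6 to 43.0 TPM in AsPC-1 and 20.4 to 21.5 TPM in PANC-1 (difference -0.88, SE 0.0618, adjusted p = 1.3e-05, limma). The ratio of ETFB to ETFA was therefore 2.21 to 2.7 in AsPC-1 and 0.857 to 0.904 in PANC-1, with no overlap. ETFB (chr19:51345169-51366418, minus strand, GRCh38, GENCODE release 29) overlaps a protein-coding gene on its own strand, AC008750.8, which had 349 to 416 TPM in AsPC-1 and 203 to 215 TPM in PANC-1, and how reads of both were divided is not given in the sources used here. ETFDH, which hands the electrons to ubiquinone, was low in both lines, at 2.25 to 2.61 and 2.83 to 3.02 TPM.

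All 4 tested enzymes of amino acid catabolism were higher in PANC-1 on the deposited scale, although GCDH, the glutaryl-CoA dehydrogenase of lysine breakdown, changed sign under quantile normalization (5.26 to 6.02 TPM in AsPC-1, 6.96 to 8.64 TPM in PANC-1). IVD, the isovaleryl-CoA dehydrogenase of leucine breakdown, was the most abundant, at 16.2, 16.3, 15.3 and 16.3 TPM in AsPC-1 with vehicle, roseoflavin, trametinib and both, and at 31.2, 28.5, 32.9 and 31.5 TPM in PANC-1 (difference 0.91, SE 0.0534, adjusted p = 5.1e-06, limma). ACADSB, the enzyme for short branched acyl-CoA from isoleucine, was 4.69 to 5.32 TPM in AsPC-1 and 20.5 to 22.2 TPM in PANC-1, a ratio of means of 4.23 (difference 1.89, SE 0.0437, adjusted p = 6.9e-08, limma). ACAD8, which acts on the valine intermediate, was 7.72 to 8.77 and 13.0 to 14.4 TPM. On the deposited scale, the libraries of the lines did not overlap for any of these 4 genes.

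Inside mitochondria, SQOR, which oxidises sulfide and passes the electrons to ubiquinone, differed most. It was 8.06, 8.41, 8.46 and 8.26 TPM in AsPC-1 and 99.6, 104, 100 and 101 TPM in PANC-1, in the order vehicle, roseoflavin, trametinib and both. The ratio of means was 12.2 (difference 3.46, SE 0.0351, adjusted p = 2.9e-09, limma), and the difference was 2.97 to 3.59 over the alternative settings. SQOR (chr15:45631148-45691294, plus strand) overlaps AC090527.2 on the same strand, which showed the same order (21.6 to 23.7 and 251 to 263 TPM), so the level of either gene alone is uncertain.

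GPD2, the mitochondrial glycerol-3-phosphate dehydrogenase, was higher in AsPC-1 (37.0 to 40.0 against 17.5 to 19.0 TPM; difference -1.02, SE 0.0445, adjusted p = 1.2e-06, limma). SDHA, the flavin subunit of complex II, was 83.0, 75.0, 82.5 and 83.7 TPM in AsPC-1 and 58.5, 60.2, 58.6 and 62.1 TPM in PANC-1, with no overlap. Its look-alike genes of the SDHAP family lay the other way, with summed levels of 81.1 to 110 TPM and 139 to 159 TPM, and reads could have been divided between them and SDHA. Both apoptosis-inducing factor genes were higher in PANC-1. AIFM1, whose product sits in the intermembrane space, was 12.3 to 13.2 and 22.2 to 23.1 TPM, and AIFM2, which keeps coenzyme Q reduced at membranes and protects from lipid peroxidation, was 8.43 to 11.1 and 18.8 to 22.2 TPM (difference 1.07, SE 0.0489, adjusted p = 1.5e-06, limma). Of the other inner mitochondrial members tested, PPOX, of heme synthesis, was 6.69 to 7.93 and 11.5 to 12.8 TPM, and DLD, the lipoamide dehydrogenase shared by the large oxo-acid dehydrogenase complexes, was 39.1 to 46.6 and 46.7 to 50.9 TPM, a gap smaller than the spread within either line.

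In the outer membrane and endoplasmic reticulum, MAOB and ERO1B were each under 1 TPM in all libraries of one line. Each passed the filter through the other line alone, so it had to differ and no p-value is given. MAOB, a monoamine oxidase, was 40.0, 42.0, 38.2 and 37.2 TPM in AsPC-1 and 0.077, 0.107, 0.099 and 0.205 TPM in PANC-1 (difference -5.17, SE 0.0618, limma). MAOA lies beside it on the X chromosome (chrX:43654907-43746824 against chrX:43766611-43882447 for MAOB) and was at or under 0.061 TPM in all 8 libraries. ERO1B, a disulfide-forming oxidase known from secretory cells, was listed at 0 in both AsPC-1 libraries with roseoflavin and at 0.039 and 0.036 TPM in the others, against 6.18, 6.03, 6.24 and 5.87 TPM in PANC-1 (difference 2.80, SE 0.0613, limma). The fitted size of such differences depends on the pseudocount. With 0.1 in place of 1, ERO1B differed by 5.72, MAOB by -7.50 and XDH by -4.28. The cytochrome b5 reductases CYB5R3 (32.7 to 35.7 and 45.0 to 49.1 TPM) and CYB5R1 (9.42 to 10.3 and 12.8 to 14.8 TPM) were higher in PANC-1 on the deposited scale, CYB5R1 not under quantile normalization.

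In the cytosol, GSR, which keeps glutathione reduced, was 101, 104, 101 and 113 TPM in AsPC-1 and 15.5, 18.8, 14.7 and 18.3 TPM in PANC-1. The ratio of means was 6.20 in favour of AsPC-1 (difference -2.57, SE 0.0544, adjusted p = 4.8e-08, limma). TXNRD2, the mitochondrial thioredoxin reductase, was higher in PANC-1 (3.11 to 3.90 against 6.05 to 6.49 TPM), so the level of GSR over that of TXNRD2 was 25.8 to 36.3 in AsPC-1 and 2.28 to 3.09 in PANC-1. XDH, the purine-oxidising xanthine dehydrogenase, was 2.62 to 4.16 TPM in AsPC-1 and 0.024 to 0.188 TPM in PANC-1 (difference -1.98, SE 0.124, limma). XDH passed the filter through AsPC-1 alone, so it had to differ and no p-value is given. MTRR, which reactivates methionine synthase, was 9.64 to 10.5 and 16.0 to 16.8 TPM, whereas PCYOX1, the prenylcysteine oxidase of lysosomes, overlapped between the lines (41.9 to 52.4 and 44.2 to 46.5 TPM). On chromatin, the histone demethylase KDM1A was 29.9, 27.5, 32.3 and 27.7 TPM in AsPC-1 and 28.6, 28.1, 28.6 and 27.2 TPM in PANC-1, so the lines overlapped on the deposited scale, whereas its relative KDM1B was 13.3 to 13.8 and 18.8 to 21.9 TPM. Rescaled without mitochondrial genes, PCYOX1 (75.0 to 90.7 and 57.3 to 61.8 TPM) was higher in AsPC-1 with no overlap. The same held for KDM1A (47.2 to 56.0 and 35.3 to 38.5 TPM).

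**Figure D2:**
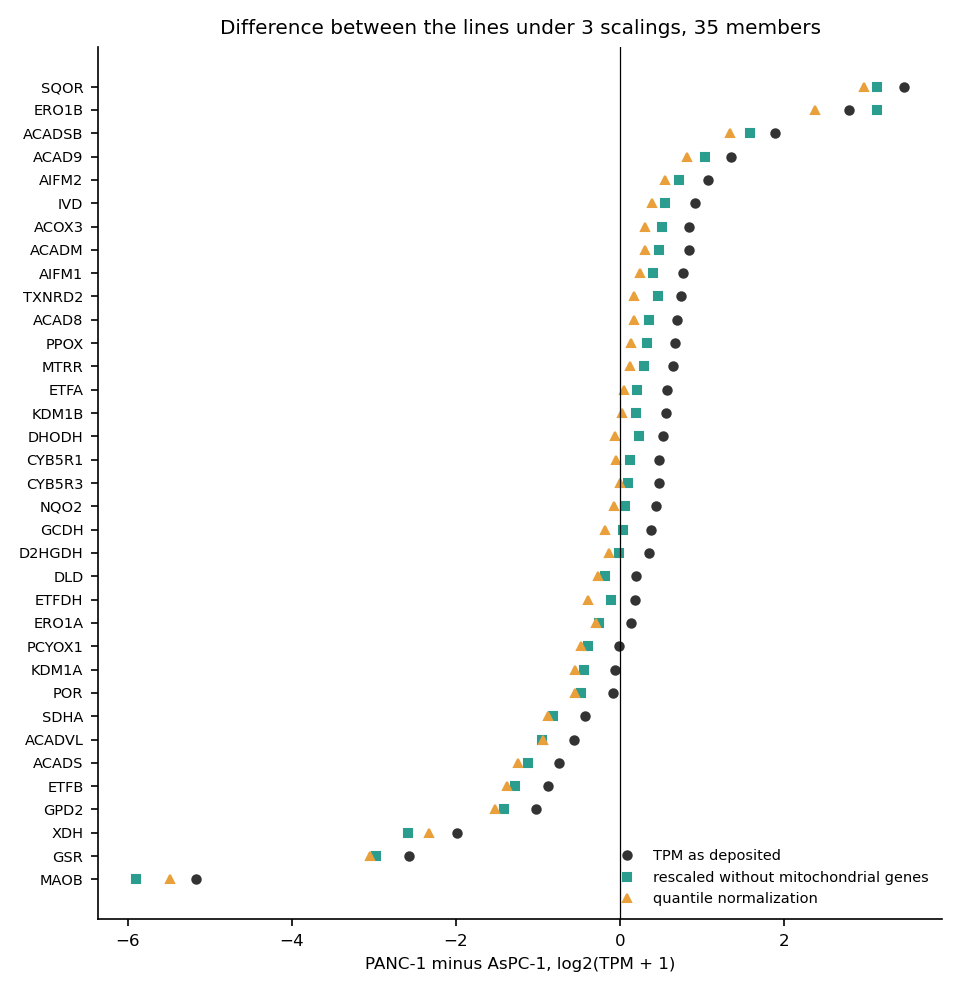
Difference between the lines (PANC-1 minus AsPC-1, log2(TPM + 1)) of the 35 members tested, from limma, under 3 scalings of the same libraries. The points of SQOR, ERO1B, ACADSB, MAOB, GSR and XDH stay far from 0 under each scaling, whereas those of members in the middle, such as ERO1A, cross it. ERO1B, MAOB and XDH each passed the filter through a single line, so they had to differ.

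No member passed the test for roseoflavin. Over both lines, 0 of 35 had an adjusted p under 0.05 for the 4 libraries with roseoflavin against the 4 without (limma, line and trametinib as terms), and 0% of all genes did. At an unadjusted p under 0.05 there were 3 members, all higher (GSR, AIFM2 and POR), against 7.1% of all genes, and 2 without the trend in the prior variance. These counts depended on single libraries. There were 5 higher and 0 lower without the AsPC-1 roseoflavin library, 2 and 2 without the AsPC-1 trametinib library, and 1 and 2 without either the AsPC-1 library with both compounds or the PANC-1 roseoflavin library. With the TPM rescaled without mitochondrial genes there were 3 higher and 2 lower. The median difference was -0.0043 over the members and -0.017 over all genes (0.014 and 0.0050 under quantile normalization). The direction was the same in all 4 matched pairs of libraries for AIFM2, GSR, CYB5R1 and KDM1B, which were higher (4 of 35, against 4.91% of all genes), and for KDM1A, ERO1B and TXNRD2, which were lower (3 of 35, against 10.2%). ERO1B did not exceed 0.039 TPM in AsPC-1, so its AsPC-1 pairs carry no direction.

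GSR had the smallest p of the members for roseoflavin. Its values above correspond to +3.0% (roseoflavin over vehicle) and +11.5% (both over trametinib) in AsPC-1, and for the same pairs of PANC-1 to +20.8% and +24.4% (difference 0.19, SE 0.0544, adjusted p = 0.659, limma). In both lines, the 2 libraries with roseoflavin lay above the 2 without it. AIFM2 was 8.43 and 9.24 TPM without and 9.05 and 11.1 TPM with roseoflavin in AsPC-1, and 18.8 and 20.9 TPM against 21.8 and 22.2 TPM in PANC-1 (0.15, SE 0.0489, adjusted p = 0.659, limma). Its levels with and without roseoflavin overlapped in AsPC-1 and not in PANC-1. POR, which supplies electrons to cytochrome P450 enzymes, was 56.8 and 54.9 TPM without and 56.0 and 59.8 TPM with roseoflavin in AsPC-1, and 49.4 and 50.5 against 56.4 and 57.7 TPM in PANC-1 (0.12, SE 0.0446, adjusted p = 0.676, limma).

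The other members given by rank were smaller still. KDM1A differed by -0.11 (SE 0.0453, adjusted p = 0.704), ACADVL by -0.096 (SE 0.0441, adjusted p = 0.716) and CYB5R1 by 0.097 (SE 0.0459, adjusted p = 0.716). By site, the medians of the roseoflavin difference ran from -0.029 for the cytosolic group to 0.074 for the outer membrane and endoplasmic reticulum group. All 7 fatty acid oxidation members lay between -0.096 and 0.015, and all 9 of the inner mitochondrial group between -0.11 and 0.058. Beside GSR and AIFM2, 12 genes known as NRF2 targets, a list without members, had a median roseoflavin difference of 0.40 over both lines. The medians were 0.12 and 0.18 for the AsPC-1 pairs, against 0.64 and 0.73 for the PANC-1 pairs, and 9 of the 12 had an unadjusted p under 0.05 for the difference between the lines in that response (median 0.48, 0 past the adjusted threshold). For roseoflavin over both lines, 10 had an unadjusted p under 0.05 and 0 passed the adjusted threshold, and the part of that pattern in the values of GSR and AIFM2 was not tested.

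**Figure D3:**
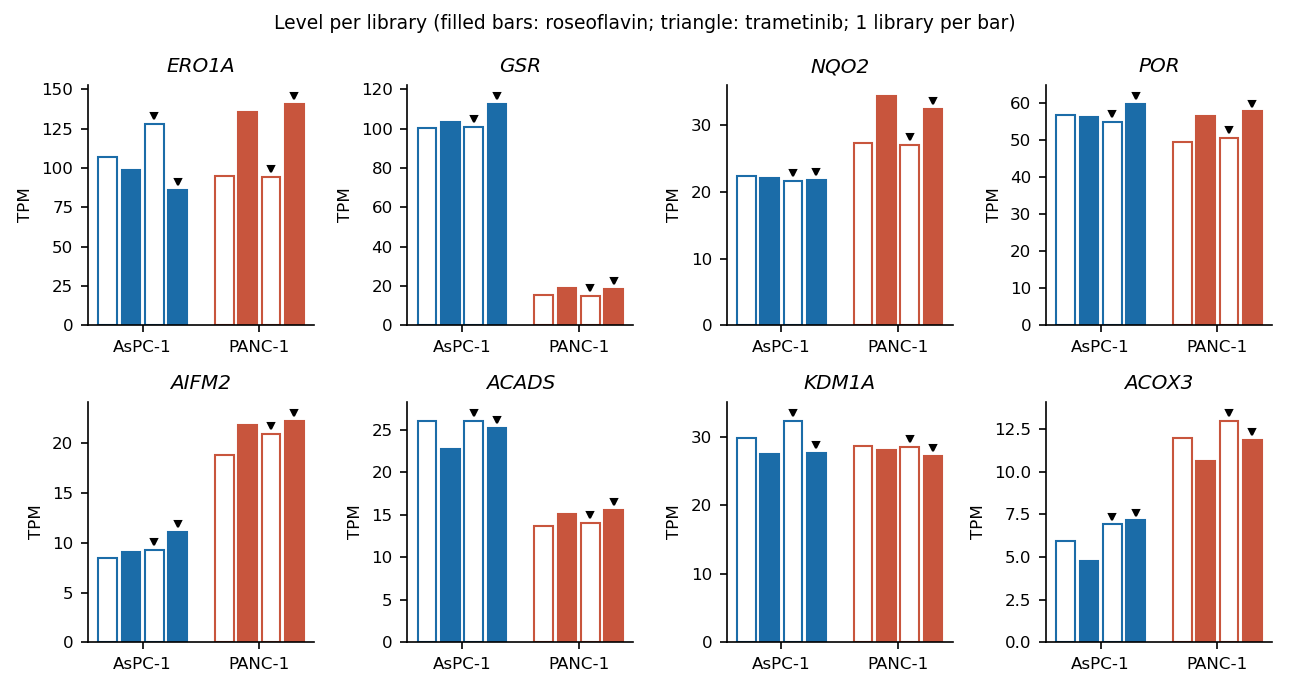
Level in TPM of 8 members in each of the 8 libraries, in the order vehicle, roseoflavin, trametinib and both within each line, with filled bars for roseoflavin and a triangle for trametinib. In PANC-1 the filled bars of ERO1A, GSR, NQO2, POR, AIFM2 and ACADS stand above the open ones, and those of KDM1A and ACOX3 below. In AsPC-1 the filled bars of ERO1A, ACADS and KDM1A stand below the open ones, and those of GSR above.

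The widest treatment differences were of ERO1A, the oxidase that passes electrons from protein disulfide isomerase to oxygen through FAD and is known to be induced by low oxygen (chr14:52639916-52695900, minus strand). In PANC-1 it was 94.5 TPM with vehicle and 94.5 with trametinib, and 136 with roseoflavin and 141 with both, +43.6% and +49.0%. In AsPC-1 it was 107 and 128 TPM without roseoflavin and 98.8 and 86.2 TPM with it, -7.5% and -32.8%. The libraries with and without roseoflavin did not overlap within either line, and the directions were opposite. In both PANC-1 libraries with roseoflavin, ERO1A became the most abundant of the 39 members, ahead of ACADVL.

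Whether the roseoflavin response differed between the lines was tested as an interaction. It passed for 0 of 35 members (0.0261% of all genes passed), and 3 members had an unadjusted p under 0.05, against 9.97% of all genes. ERO1A had the largest interaction, 0.88 (SE 0.152, unadjusted p = 0.0019, adjusted p = 0.254, limma), made of -0.34 (SE 0.108, adjusted p = 0.475) within AsPC-1 and 0.54 (SE 0.108, adjusted p = 0.327) within PANC-1. Over the alternatives the interaction was 0.73 to 1.04 and the adjusted p was 0.00668 to 0.690. The lowest of these came from a fit of RefSeq mRNAs averaging 10 TPM or more, an alternative added after the data had been seen, and was the only one past the threshold.

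Genes known to respond to low oxygen were read beside ERO1A. Of 15 such genes other than ERO1A, 0 were higher with roseoflavin in either AsPC-1 pair, with medians of -0.38 and -0.68. BNIP3 was listed at 0 in every AsPC-1 library and has no direction there, while the other genes were lower in both pairs. In the PANC-1 pairs, 15 and 13 of the 15 were higher, with medians of 0.34 and 0.27. For the interaction, 14 of the 15 had an unadjusted p under 0.05 and 0 passed the adjusted threshold. A list of 12 ATF4 targets was read too. All 12 were higher in both PANC-1 pairs (medians 0.41 and 0.44), against 2 and 5 of 12 in the AsPC-1 pairs (medians -0.039 and 0). For the interaction, 10 of the 12 had an unadjusted p under 0.05 and 2 passed the adjusted threshold, DDIT3 (1.19, SE 0.0696, adjusted p = 0.0383) and DDIT4 (0.91, SE 0.0540, adjusted p = 0.0383, limma). No gene of the whole table passed this test under quantile normalization, with the TPM rescaled without mitochondrial genes or with any 1 library left out. The part of either list in the ERO1A difference was not tested.

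NQO2, a quinone reductase, and ACADS were the other members with an unadjusted p under 0.05. NQO2 was 22.4, 22.0, 21.6 and 21.8 TPM in AsPC-1 with vehicle, roseoflavin, trametinib and both, a range narrower than 1 TPM, and 27.3, 34.4, 27.0 and 32.5 TPM in PANC-1. In PANC-1 both libraries with roseoflavin lay above both without it, by 25.8% and 20.4% (interaction 0.30, SE 0.0655, adjusted p = 0.346, limma). ACADS was 26.1, 22.8, 26.1 and 25.3 TPM in AsPC-1 and 13.7, 15.1, 14.1 and 15.6 TPM in PANC-1 (interaction 0.25, SE 0.0795, adjusted p = 0.439, limma). GSR (0.18, SE 0.0854, adjusted p = 0.570), CYB5R3 (-0.15, SE 0.0723, adjusted p = 0.581) and POR (0.14, SE 0.0706, adjusted p = 0.589) ranked next by p. ACADS and ERO1A were the 2 members of 35 that were lower in both AsPC-1 pairs and higher in both PANC-1 pairs, against 11.5% of all genes. CYB5R3 and IVD showed the opposite order (2 of 35, against 5.32%).

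**Figure D4:**
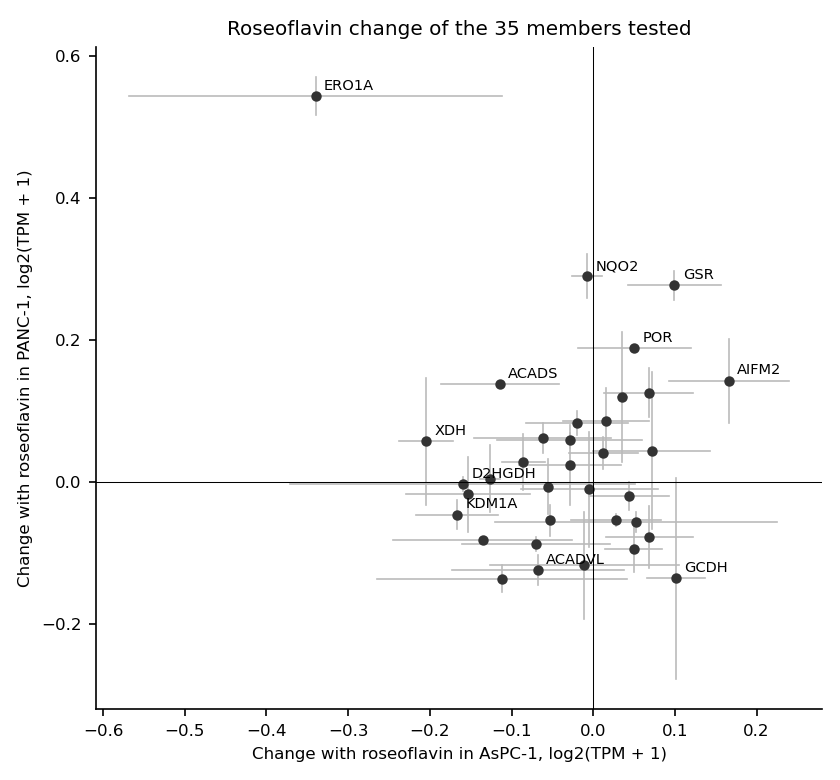
Change with roseoflavin in AsPC-1 (x axis) and PANC-1 (y axis) for the 35 members tested, in log2(TPM + 1). Points are means of the pair without and the pair with trametinib and each grey line ends at those 2 values, and ERO1A lies alone at the upper left at -0.34 and 0.54.

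As a description with no test, a change of at least 1.2-fold on TPM + 1 in the same direction in both pairs of a line was counted. With roseoflavin in PANC-1, ERO1A alone of the 35 members was higher by this measure (2.91% of all genes were) and 0 were lower (2.73%). In AsPC-1, 0 were higher (1.3%) and 0 lower (3.96%). With a pseudocount of 0.1, GSR and NQO2 joined ERO1A in PANC-1. ERO1A also made up most of the gain in the summed level. With roseoflavin the sum of the 39 members in PANC-1 was 48.9 TPM higher without trametinib and 50.6 TPM higher with it, and without ERO1A the gains were 7.71 and 4.27 TPM. In AsPC-1 the sum was 56.5 and 25.2 TPM lower with roseoflavin, and without ERO1A the changes were -48.5 and +16.8 TPM, so the second turned sign. Rescaled without mitochondrial genes, the sum of all 39 was 1825 TPM with vehicle and 1818 with roseoflavin in AsPC-1, and 1861 with trametinib and 1790 with both. On that scale the first difference was far smaller and the second was larger. On that scale the PANC-1 sums were 1373.5 and 1403 TPM, and 1371 and 1401.

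**Figure D5:**
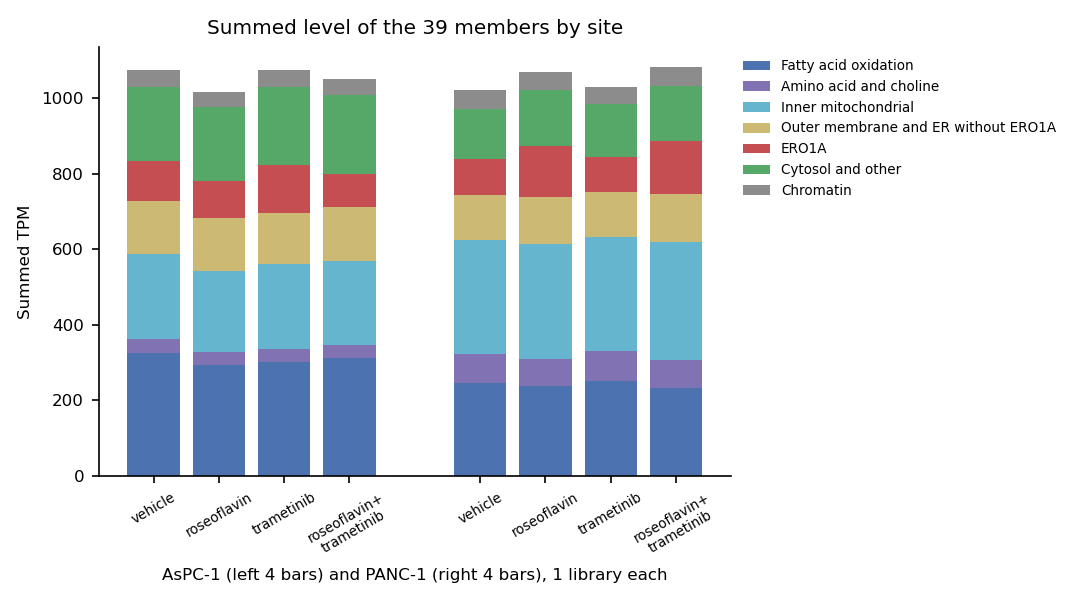
Summed TPM of the 39 members in each library, stacked by site, with ERO1A drawn apart from the rest of its group. The total is 1017 to 1082 TPM in all 8 libraries, and the ERO1A band widens in the PANC-1 bars with roseoflavin.

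Trametinib at this dose moved no member past the threshold. The test over both lines called 0 of 35 (0% of all genes), with 2 members at an unadjusted p under 0.05 (4.91% of all genes), and 2 also without the trend in the prior variance. ACOX3, a peroxisomal acyl-CoA oxidase for branched chains, was 5.96 and 4.80 TPM without and 6.92 and 7.16 TPM with trametinib in AsPC-1, and 12.0 and 10.7 TPM against 13.0 and 11.9 TPM in PANC-1. Its libraries separated by trametinib in AsPC-1 and overlapped in PANC-1 (difference 0.23, SE 0.0718, adjusted p = 0.861, limma). AIFM2, with the values given above, differed by 0.14 (SE 0.0489, adjusted p = 0.861, limma). Together with ACADSB these were the 3 members higher with trametinib in 4 of 4 pairs (9.66% of all genes), and NQO2 and TXNRD2 were the 2 that were lower in 4 of 4 (4.54%). DLD differed by 0.10 (SE 0.0507, adjusted p = 0.861), ACADSB by 0.074 (SE 0.0437, adjusted p = 0.861), PCYOX1 by 0.080 (SE 0.0578, adjusted p = 0.864) and ETFA by 0.055 (SE 0.0393, adjusted p = 0.864).

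The trametinib response differed between the lines for 0 of 35 members (0% of all genes), with 1 at an unadjusted p under 0.05 (7.28%). This was ACADM, at 11.2 and 11.5 TPM without and 13.7 and 12.8 TPM with trametinib in AsPC-1, and at 22.6 and 24.0 TPM against 22.4 and 21.9 TPM in PANC-1 (interaction -0.27, SE 0.0886, adjusted p = 0.665, limma). The groups did not overlap in either line. XDH was 3.08 and 2.62 TPM without and 4.16 and 3.37 TPM with trametinib in AsPC-1 and was the single member at least 1.2-fold higher in both AsPC-1 pairs (2.81% of all genes; interaction -0.43, SE 0.190, adjusted p = 0.692, limma). D2HGDH, which removes D-2-hydroxyglutarate, was 31.3 TPM in the AsPC-1 vehicle library against 22.3 to 24.0 TPM in the other AsPC-1 libraries and 31.1 to 33.5 TPM in PANC-1 (interaction 0.35, SE 0.161, adjusted p = 0.699, limma). MAOB (0.19, SE 0.102, adjusted p = 0.737), PPOX (0.18, SE 0.10, adjusted p = 0.760) and ACOX3 (-0.21, SE 0.124, adjusted p = 0.767) followed. MAOB, IVD, PPOX and D2HGDH were lower with trametinib in both AsPC-1 pairs and higher in both PANC-1 pairs (4 of 35, against 6.28% of all genes), and KDM1A, GSR, ACADM and XDH showed the opposite order (4 of 35, against 7.46%). In PANC-1, MAOB did not exceed 0.205 TPM and XDH did not exceed 0.188 TPM, so their PANC-1 pairs carry no direction. The interactions of MAOB and XDH include these near-zero values. At 1.2-fold in both pairs, 0 members were lower with trametinib in AsPC-1 (2.62%), and in PANC-1 0 were higher (2.12%) and 0 lower (2.21%).

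Both compounds together did not depart detectably from the sum of each on the log scale. The interaction of roseoflavin and trametinib was past the adjusted threshold for 0 of 35 members (0% of all genes), and 0 had an unadjusted p under 0.05 (2.8% of all genes). DHODH, the FMN enzyme of pyrimidine synthesis, ranked first, at 2.98, 2.98, 2.54 and 2.91 TPM in AsPC-1 and 4.79, 4.53, 4.13 and 4.71 TPM in PANC-1 (0.18, SE 0.113). In each line the library with trametinib alone was the lowest. ETFB (0.16, SE 0.118), ACOX3 (0.17, SE 0.140), SDHA (0.10, SE 0.0929), PCYOX1 (-0.13, SE 0.115) and D2HGDH (0.22, SE 0.201) came next, and the adjusted p was 1.00 for all 6.

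Beside the members, 52 genes of a list of 69 other flavoproteins were tested. For roseoflavin 0 passed (0% of all genes), 2 were higher and 4 lower at an unadjusted p under 0.05, and the median was -0.033. TXNRD1, the cytosolic thioredoxin reductase, was 154 and 179 TPM without and 195 and 207 TPM with roseoflavin in AsPC-1, and 107 and 107 TPM against 171 and 183 TPM in PANC-1 (0.50, SE 0.0973, adjusted p = 0.599, limma). SQLE, the squalene epoxidase of sterol synthesis, differed by 0.25 (SE 0.0571, adjusted p = 0.599) and MICAL1, an actin oxidase, by -0.15 (SE 0.0460, adjusted p = 0.659). For the difference between the lines in that response 0 passed, and NQO1, a quinone reductase, led (0.51, SE 0.0789, adjusted p = 0.226), followed by TXNRD1 (0.44, SE 0.0836, adjusted p = 0.288) and QSOX1, a sulfhydryl oxidase (0.44, SE 0.103, adjusted p = 0.351). In AsPC-1, NQO1 was 337 to 376 TPM. In PANC-1 it was 166 and 172 TPM without against 242 and 241 TPM with roseoflavin.

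Of 11 genes that take up riboflavin or make and break down its cofactors, 8 were tested and 0 passed for roseoflavin. SLC25A32, a mitochondrial carrier, differed by 0.17 (SE 0.0587, adjusted p = 0.674), BLVRB, a flavin reductase, by 0.24 (SE 0.120, adjusted p = 0.736) and ENPP1, a pyrophosphatase, by -0.091 (SE 0.0916, adjusted p = 0.856). BLVRB was 77.4 and 74.1 TPM without and 70.4 and 76.8 TPM with roseoflavin in AsPC-1, and 28.0 and 30.7 TPM against 42.7 and 42.3 TPM in PANC-1 (interaction 0.56, SE 0.0926, adjusted p = 0.254, limma). ENPP1 (0.33, SE 0.135, adjusted p = 0.522) and FLAD1, the FAD synthase (-0.16, SE 0.131, adjusted p = 0.723), ranked next.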

How the data were processed

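The authors deposited 1 table with a TPM value per gene and library, per the file headers. The submitters' processing notes name STAR 2.7.3a, HTSeq 2.0.2 and build hg38, without their roles, and the annotation is not given in the sources used here. RNA was column-purified and libraries were made with a stranded mRNA kit, per the labels' protocols. From 1048575 rows, 985926 blank ones were dropped, which left 62649 genes, and 0 columns of values were unused. TPM keeps no depth, so no counting error was computed.

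The scale was log2(TPM + 1), on which changes of low genes come out too small. The 19122 genes that reached 1 TPM in 2 libraries or more entered limma 3.58.1 (R 4.3.3, eBayes with trend), with Benjamini-Hochberg adjustment over all of them and a threshold of 0.05. Main effects had line, roseoflavin and trametinib as terms (4 residual degrees of freedom) and each interaction added 1 term (3). Standard errors come from these fits. The models were tested on simulated data with 200 changed genes. For the roseoflavin main effect, 76.5% of changes of 0.5 on the log2 scale and 94.5% of changes of 1 were recovered. For the difference between the lines in the roseoflavin response, 0% and 62% were. A count of 0 members in that test therefore does not show that the lines responded alike. In the data themselves, TXNRD1 differed by 0.50 with roseoflavin over both lines and did not pass (adjusted p = 0.599, limma). The simulated recovery may therefore be too high for these libraries, and 0 members for roseoflavin does not show that no member responded.

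Full statistics are given for members past the threshold (for the line difference at most the 6 largest each way) or, where under 4 passed, for the 6 with the smallest p. Per-library values are given for these and for the most abundant member of each site, other members by range, and from the other lists the 3 genes with the smallest p. For MAOB, XDH and ERO1B the p-value of the line difference is left out, because the filter fixed that they differ. The members, lists and tests were chosen with earlier results of these data known. Coordinates are from GENCODE release 29 (GRCh38) by gene identifier, 39 of 39 members matched, and promoter sequences are from RefSeq (GRCh38.p14). Alternatives were other pseudocounts, filters, scalings and priors, leaving out each library in turn, other terms, and another fold.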

Additional observations from a re-analysis of the deposited data

How the results depend on the processing

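The counts of members past the adjusted threshold stayed at 0 for both compounds, for the trametinib difference between lines and for the interaction of the compounds under every alternative run, and leaving out each library in turn gave 30 to 31 for the line difference. The count for the roseoflavin difference between lines was 1 (ERO1A) with RefSeq mRNAs of at least 10 TPM, an alternative added after the data had been seen, in which fewer genes were tested. For the counts of members changed at least 1.2-fold in both pairs of a line, roseoflavin in AsPC-1 gave 1 lower (ERO1B, listed at 0) with a pseudocount of 0.1 and with quantile normalization in place of 0. Roseoflavin in PANC-1 gave 3 higher with a pseudocount of 0.1, 2 with quantile normalization and 0 at 1.5-fold in place of 1. Trametinib in AsPC-1 gave 0 higher in place of 1 with a mean of at least 10 TPM, quantile normalization, rescaling without mitochondrial genes, the RefSeq mRNAs and 1.5-fold. Without the AsPC-1 vehicle library, the interaction of the compounds for D2HGDH was -0.016 in place of 0.22 (leaving out one library at a time, -0.016 to 0.458), and the cause was not tested. Leaving out one library at a time, the members at an unadjusted p under 0.05 numbered 1 to 3 for trametinib, 2 to 5 for the roseoflavin difference between lines and 0 to 2 for the trametinib difference between lines. No paired analysis was possible because each group has 1 library and the labels carry no replicate numbers, so no replicate block could be fitted. Libraries were matched by line and other compound instead, and these were terms of the model. TPM keeps no depth, so counting error could not be set beside any of these values.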

Other observations

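The members varied little over the 4 libraries within AsPC-1 or PANC-1. Of genes averaging 10 TPM or more, the median coefficient of variation was 5.36% over 21 members and 6.69% over all 7999 genes in AsPC-1, and 4.17% over 28 members and 4.79% over all 9717 genes in PANC-1. ERO1A had the highest value of these members in both lines, with 16.8% in AsPC-1 (percentile 93.4 of all such genes) and 21.8% in PANC-1 (percentile 96.8). D2HGDH was next to it in AsPC-1, with 16.4%, where the vehicle library alone was high.

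The GC box letters, GGGCGG or, read from the other strand, CCGCCC, were present in the 250 bases before the start of 25 of 33 members, 75.8% against 42.6% of all 35116 promoters, and the median GC content of these windows was 69.6% for the members and 58% for all. The letters CCAAT, which read ATTGG from the other strand, were present in 8 of 33 (24.2% against 32.0%), and TGATGNAA (TTNCATCA on the other strand), the core of the element bound by ATF4, in 0 of 33 against 3.14%. Among the genes that take up riboflavin, SLC52A2 was 87.2 to 104 TPM in AsPC-1 and 32.7 to 35.5 TPM in PANC-1, and SLC52A3 was 14.4 to 16.4 and 2.55 to 2.98 TPM, while the riboflavin kinase gene RFK was 5.62 to 7.53 and 14.8 to 15.7 TPM. These 3 genes were chosen after their values were seen, and the libraries of the lines did not overlap for any of them.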
